A study of Mus musculus with 2 samples.

Results

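The macrophages of the fetal pancreas were 79 of the 10008 complete cells in a pair of single-cell RNA-seq libraries, 52 of 6384 in the wild-type library and 27 of 3624 in the Mettl3pKO library. They were chosen from the deposited counts of unique molecular identifiers (UMIs, 1 per captured mRNA molecule) by a rule with several conditions. A cell needed at least 10 UMIs summed over C1qa, C1qb, C1qc and Csf1r, and fewer UMIs of the mast cell and granulocyte genes Cpa3, Cma1, S100a8 and S100a9 than of those. It also had to hold, per 10000 of its UMIs, less than 20 of Col1a1 and Col3a1 together, less than 200 of Gcg, less than 200 of Ins1 and Ins2 together, and less than 100 of Ctrb1. These genes therefore describe the cells and support nothing about them.

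The study set mouse fetal pancreas at E15.5 (embryonic stage in days after conception) lacking the RNA methyltransferase gene Mettl3 against wild-type pancreas of the same stage, with 1 library per genotype on the BD Rhapsody microwell platform. WT denotes the wild-type library. Mettl3pKO denotes embryos in which Mettl3 was removed in the Pdx1-expressing progenitors of the pancreas, the lineage that gives rise to its acinar, duct and endocrine cells. The labels thus place no deletion in macrophages, which are of blood origin, so the Mettl3pKO macrophages lay in a tissue whose epithelium was targeted. The labels do not say whether a library pooled several embryos. With 1 library per genotype there was no replicate and no test between genotypes; every interval below is at the 95% level and covers counting error only.

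Tissue macrophages engulf dying cells and debris, digest them in lysosomes, and signal to their surroundings through chemokines and growth factors. Before birth they descend from yolk sac and fetal liver precursors, and they depend on the receptor encoded by Csf1r. C1qa, C1qb and C1qc encode the 3 chains of C1q, which opens the classical complement pathway and marks cells for engulfment, and Mrc1 encodes the mannose receptor CD206 of resident macrophages.

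Mettl3 itself (chr14:52294841-52305128 in GRCm38) was sparse in these cells. The WT macrophages held 7 Mettl3 UMIs in 5 of 52 cells, or 12.04 CPM (interval 4.84 to 24.8), where CPM scales the UMIs summed over a group of cells to a total of 1000000. The Mettl3pKO macrophages held 8 in 6 of 27 cells, or 15.1 CPM (6.53 to 29.8), a ratio of 1.26 with an interval of 0.398 to 4.07. In all other cells the level of Mettl3 was 14 CPM for WT and 9.38 CPM for Mettl3pKO, a ratio of 0.670 (0.606 to 0.740). Mettl3 was thus lower over all other cells pooled, without matching of cell types. After thinning of every cell to the same number of UMIs, 5.83% of WT acinar cells (4.8 to 7.0) held Mettl3. The share of Mettl3pKO acinar cells was 5.14% (4.2 to 6.3), so the intervals overlapped. The macrophage interval contained both 1 and 0.670 and cannot decide between them. The macrophage counts include cells set aside below. Without those, Mettl3 was in 2 of 40 WT and 1 of 17 Mettl3pKO macrophages after thinning.

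The macrophages contributed 581378 UMIs in WT and 528606 in Mettl3pKO. A WT macrophage held 6848 to 33582 UMIs with a median of 9428, and a Mettl3pKO macrophage 12462 to 54778 with a median of 16435. The whole libraries differed in the same direction, since the shallowest cell had 3803 UMIs in WT and 10719 UMIs in Mettl3pKO. Macrophages of at least 10719 UMIs are therefore also described, as those above the common floor. The libraries shared 33 cell barcodes, none of them in a macrophage. They also differed in the sex of their cells: among the macrophages, 31 WT cells and 3 Mettl3pKO cells held Xist and no Y-linked UMI, while 16 and 19 held a Y-linked UMI and no Xist. Genotype, sex composition and depth cannot be told apart over the whole libraries, so values above the common floor and in Y-positive unmixed macrophages (14 in WT and 13 in Mettl3pKO) stand beside the results they change.

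The label was checked against Tyrobp and Fcer1g, a pair of genes for signalling adaptors of myeloid cells that the rule did not use. All 52 WT macrophages and 21 of the 27 Mettl3pKO macrophages carried Tyrobp, and the same numbers carried Fcer1g. The remaining 6 Mettl3pKO cells went against the label. Each had entered on 10 to 14 UMIs of C1qa alone, with 0 UMIs of C1qb, C1qc, Csf1r, Tyrobp and Mrc1. A list of 19 acinar genes, for the digestive enzymes of the exocrine pancreas, summed to between 224 and 1132 per 10000 UMIs in these 6 cells, against at most 25.3 in any WT macrophage. They supplied 32.2% of all UMIs summed over the Mettl3pKO macrophages. The plot of acinar genes against the summed rule genes sets the 6 cells apart from the others.

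**Figure D1:**
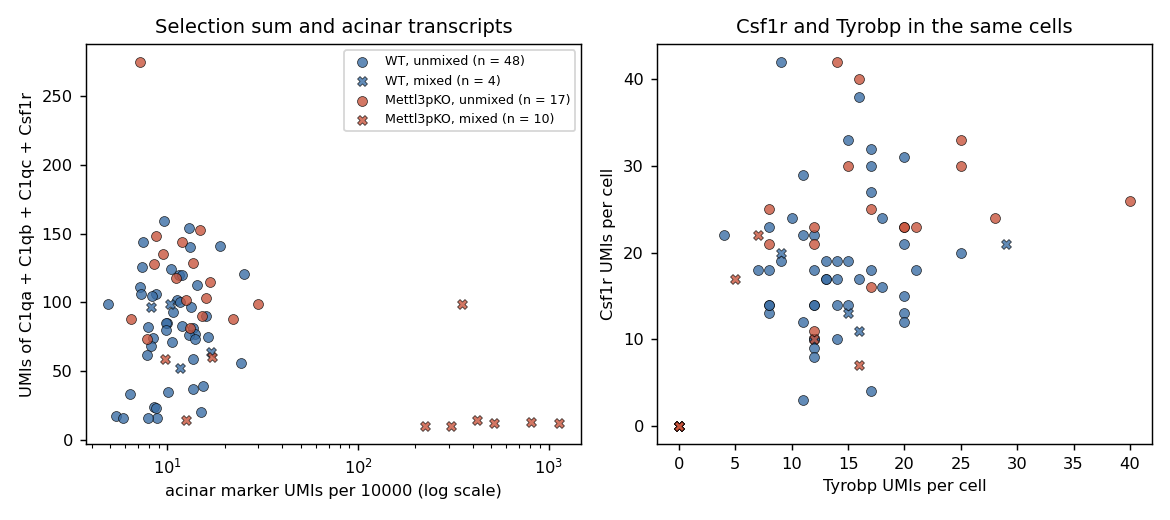
Every one of the 79 cells is 1 point, coloured by library, with circles for the 65 cells later called unmixed and crosses for the other 14. The left panel plots the summed acinar genes per 10000 UMIs (log axis) against the summed UMIs of C1qa, C1qb, C1qc and Csf1r, and the right panel plots Tyrobp against Csf1r in UMIs; 6 Mettl3pKO cells sit at 224 to 1132 acinar UMIs per 10000 with no Csf1r and no Tyrobp.

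Another 8 cells carried Csf1r together with many transcripts of a second lineage. In WT, 2 cells of 32037 and 33582 UMIs held 385 and 361 UMIs of 6 neuronal genes such as Stmn2 and Gap43, and 2 others held 343 and 1165 UMIs of erythroid genes. In Mettl3pKO, 1 cell held 350 acinar UMIs per 10000 and 3 held 31.6 to 52.9 of duct and trunk genes. Setting these 14 cells aside left 65 macrophages with no large share of another lineage, 48 in WT and 17 in Mettl3pKO, called unmixed macrophages below. The limits behind this subset were set after the data were seen. The doublet caller Scrublet marked 1 of the 4 WT cells set aside (25%) and 0 of the 48 unmixed ones. In Mettl3pKO it marked none of the 27 macrophages and 1 of all 3624 cells.

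All 65 unmixed macrophages carried Tyrobp. Csf1r, a gene of the rule, ran from 4.38 to 51.2 per 10000 UMIs in WT (median 17.5) and from 8.49 to 33.6 in Mettl3pKO (median 14.6). Tyrobp ran from 3.30 to 31.9 (median 12.6) and from 5.45 to 15.2 (median 11.7). For both genes the Mettl3pKO range lay within that of WT. Lymphocyte markers were at 0 for 9 of 10 genes in WT and for all 10 in Mettl3pKO. Granulocyte markers summed to 54.3 CPM over 10 genes in WT, with 3 of the 10 at 0, and to 3.72 CPM in Mettl3pKO, with 9 at 0. Mast cell markers summed to 10.1 and 14.9 CPM. The nearest immune class, the 56 WT and 29 Mettl3pKO mast cells and granulocytes, had Tyrobp at 664 CPM in WT but no UMI of C1qb, C1qc or Mrc1 in either library.

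The cells near the edge of the rule differed between libraries. The counts by sum given here cover only cells that met all other conditions of the rule, so acinar cells left out by Ctrb1 are not among them. In WT no such cell had a sum of 10 to 15, and all 4 with a sum of 16 to 19 carried Csf1r and Tyrobp. In Mettl3pKO, 4 cells had a sum of 10 to 12, none of them with Csf1r, and 3 had 13 to 15, of which 1 carried Csf1r. Just below the threshold, at a sum of 8 to 9, lay 3 WT cells, of which 1 carried Csf1r, and 3 Mettl3pKO cells, of which none did. The sums of the unmixed macrophages ran from 16 to 159 in WT (median 82.5), the 4 cells at 16 to 19 included, and from 73 to 275 in Mettl3pKO (median 115).

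C1qa was counted widely in acinar cells, and its sister genes were not. Of 1977 WT cells with at least 100 Ctrb1 per 10000 (Ctrb1 encodes chymotrypsinogen B), 70.7% held a C1qa UMI, and of 1750 such Mettl3pKO cells 64.1% did. A C1qb UMI was found in 0.961% and 1.14% of the same cells, C1qc in 1.01% and 1.43%, and Csf1r in 0.759% and 1.71%. The WT acinar cells summed to 3802 C1qa UMIs (130 CPM, 126 to 134) against 39 of C1qb and 31 of C1qc. In the WT macrophages the order was the opposite, with 549 UMIs of C1qa, 1310 of C1qb and 1429 of C1qc. The source of the C1qa counts in acinar cells was not tested.

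C1qa counts also followed Ctrb1 among cells that were not macrophages. From 1 to 10, 10 to 100, 100 to 300 and above 300 Ctrb1 per 10000, C1qa in WT stood at 8.15, 15.8, 73.9 and 151 CPM, and in Mettl3pKO at 12.7, 38.1, 78.5 and 106 CPM. C1qb over the same WT bins stood at 1.63, 0, 3.15 and 0.657 CPM, and over the Mettl3pKO bins at 7.18, 0.480, 4.66 and 3.53 CPM. Thus C1qa was higher in each successive of these bins in both libraries and C1qb was not. The macrophages left out were chosen partly on these genes and all lay below 100 Ctrb1 per 10000. Leaving them out lowered both genes in the bins below 100 only, and the order of the bins with them included was not tested. Below 1 Ctrb1 per 10000 lay only 74 WT cells, with C1qa at 8.51 CPM (3.12 to 18.5), and 6 Mettl3pKO cells with no C1qa UMI. Of the cells reaching a sum of 10, 18 in each library did so on C1qa alone. All 18 in WT and 12 of 18 in Mettl3pKO were acinar by Ctrb1, and the other 6 in Mettl3pKO were the cells described above.

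**Figure D2:**
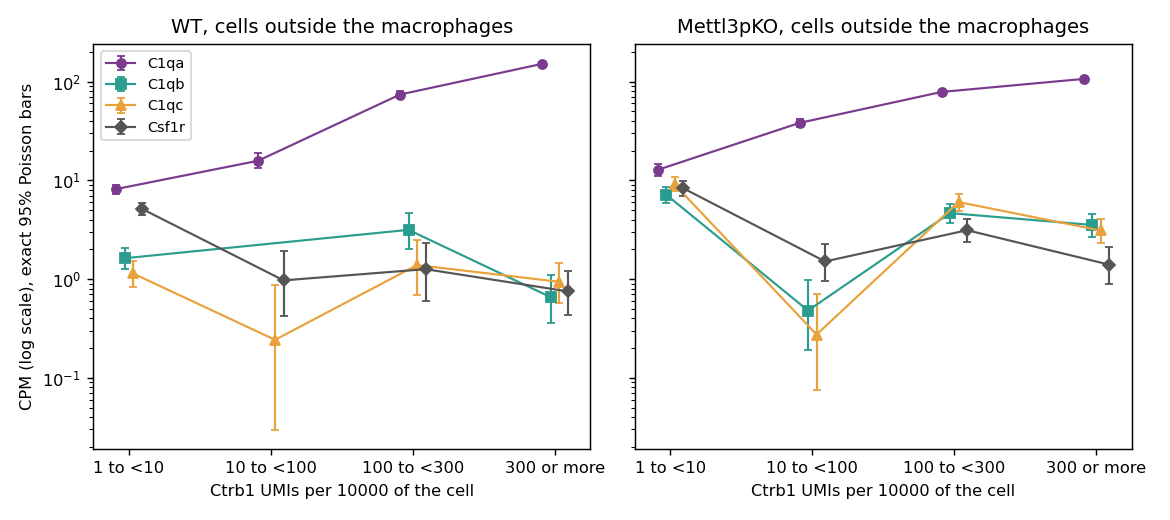
CPM of C1qa, C1qb, C1qc and Csf1r (log axis) in cells outside the macrophages, in bins from 1 Ctrb1 per 10000 UMIs upward, 1 panel per library, with exact Poisson 95% intervals. C1qa reaches 151 CPM in the top WT bin and 106 CPM in the top Mettl3pKO bin while C1qb stays at 0.657 and 3.53 CPM; C1qb in the WT bin from 10 to 100 has 0 UMIs and is not drawn.

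The 3 genes lie side by side on the minus strand of chromosome 4 in GRCm38, C1qb at chr4:136880129-136886187, C1qc at chr4:136889804-136893065 and C1qa at chr4:136895917-136898803, and no other annotated gene overlaps C1qa. Ranked by the correlation of log-scaled levels over all cells of each library, taking the lower of the 2 libraries, the genes most like C1qa were acinar. Cela3b, an elastase, led with r = 0.599 in WT and 0.425 in Mettl3pKO over 6384 and 3624 cells, followed by Pnliprp1, Rnase4, Clps and Ctrb1. The genes most like C1qb were myeloid: C1qc (0.969 and 0.973), C3ar1, Adgre1, Fcrls and Mrc1. C1qa ranked 182nd in that list. All these values share the libraries and their depth and are descriptions. Within the unmixed macrophages, C1qa did follow C1qc (0.919 over 48 WT cells and 0.509 over 17 Mettl3pKO cells) and C1qb (0.791 and 0.467).

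The sequence just upstream of C1qb, C1qc and Mrc1, which separate macrophages from acinar cells better than C1qa does, is shown from RefSeq on GRCm38.p6. Each is read 5′ to 3′ on the gene's strand. Capitals mark GAGGAA, a purine-rich word that the myeloid factor PU.1 (encoded by Spi1) recognises, or TTCCTC, the same word on the other strand. Where GENCODE begins the gene further upstream than RefSeq, the bases it counts to the gene are left out, so the printed parts have unequal lengths. C1qb is shown over chr4:136886201-136886450 (minus strand), C1qc over chr4:136893066-136893164 (minus) and Mrc1 over chr2:14229164-14229391 (plus).
C1qb: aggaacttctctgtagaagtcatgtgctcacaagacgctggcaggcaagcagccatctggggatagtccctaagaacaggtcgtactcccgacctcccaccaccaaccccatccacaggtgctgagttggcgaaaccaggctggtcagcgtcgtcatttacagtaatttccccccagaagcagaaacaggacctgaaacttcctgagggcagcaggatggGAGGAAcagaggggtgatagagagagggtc
C1qc: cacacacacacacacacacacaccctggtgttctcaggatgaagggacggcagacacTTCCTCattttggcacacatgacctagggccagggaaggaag
Mrc1: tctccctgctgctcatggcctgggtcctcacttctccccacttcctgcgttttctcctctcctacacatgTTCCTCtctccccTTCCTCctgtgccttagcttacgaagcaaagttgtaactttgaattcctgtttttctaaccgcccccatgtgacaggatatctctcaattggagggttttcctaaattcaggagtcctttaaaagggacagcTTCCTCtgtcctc
C1qb held the word 30 bases before the RefSeq start, C1qc 193 bases before it and Mrc1 180, 167 and 35 bases before it. Searched on both strands over 250 bases, the word was in 3 of these 3 windows and in 7639 of 32851 upstream windows of that length, or 23.2%. A match is a run of letters and says nothing of binding here. No window is given for C1qa or Csf1r.

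Macrophages made up 0.815% of WT cells (exact binomial interval 0.609 to 1.07) and 0.745% of Mettl3pKO cells (0.492 to 1.08), a ratio of 0.915 (0.552 to 1.48). Above the common floor the WT share was 18 of 3256 cells, or 0.553%, and the ratio 1.35 (0.716 to 2.60). For unmixed macrophages the shares were 0.752% and 0.469%, a ratio of 0.624 (0.336 to 1.11), and above the floor the ratio was 0.955 (0.454 to 2.02). No direction of difference in macrophage number held over these counts, and every interval contained 1. Cells shallower than the last of each table were not analysed here.

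The genes that stood out most in these cells covered the working parts of a resident macrophage. Over the 79 cells, 443 of 4049 genes with at least 50 UMIs (10.9%) were at least 4-fold above all other cells in both libraries, and over the unmixed macrophages 502 of 2927 (17.2%). The cells were picked on macrophage genes, so these counts describe them and test nothing. The 25 leading genes, by the lower of the 2 libraries' ratios, all stood at least 149.8-fold above the other cells, the lowest being Ly86. They included chemokines (Ccl7, Ccl2, Ccl12, Ccl4 and Cxcl2), receptors of complement fragments (C3ar1 and C5ar1) and scavenger receptors (Mrc1, Stab1 and Msr1). Also among them were the lipid-sensing receptor Trem2, the fractalkine receptor Cx3cr1, the F4/80 gene Adgre1, the platelet-factor chemokine Pf4, the coagulation factor F13a1 and 4 genes of the Ms4a family.

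**Figure D3:**
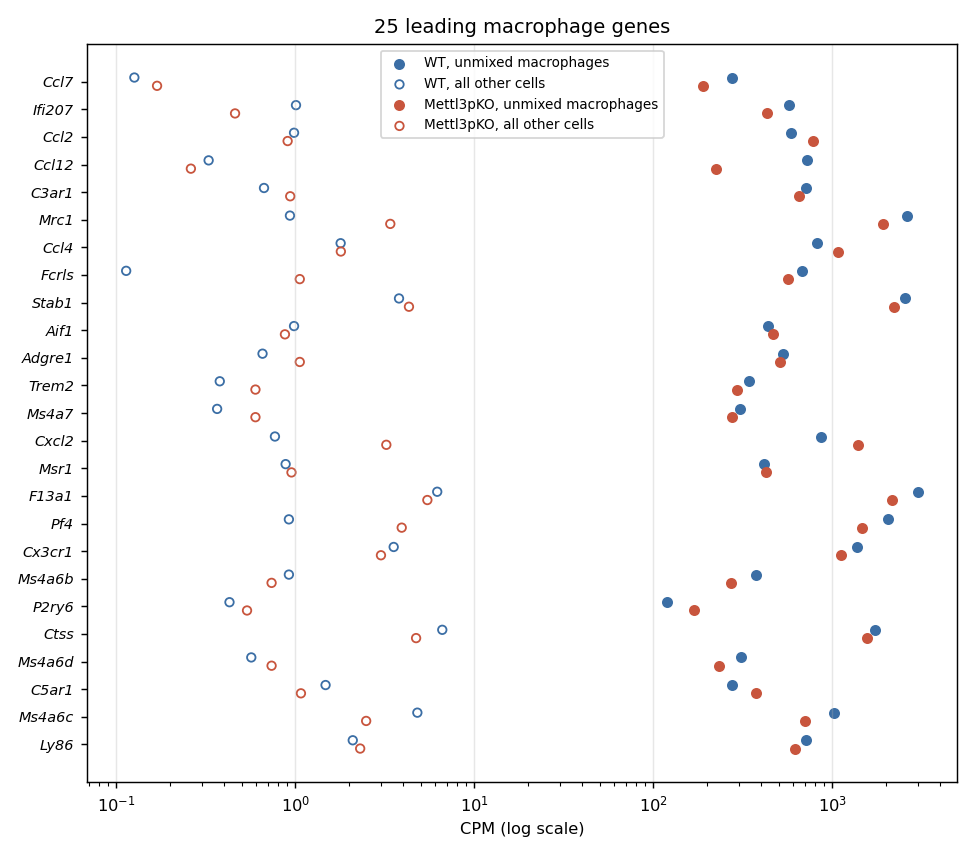
The 25 leading genes with their CPM (log axis) in the unmixed macrophages (filled) and in all other cells (open) of each library. All 25 lie at 100 CPM or more in the macrophages of both libraries; Mrc1 lies at 2618 and 1926 CPM there against 0.932 and 3.39 CPM in the other cells.

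Complement genes and their receptors summed to 8062 CPM in WT and 7847 in Mettl3pKO. Over unmixed macrophages C1qc was at 2652 CPM (WT) and 2760 (Mettl3pKO), C1qb at 2431 and 2164, and C1qa at 1027 and 1158. C3ar1, a receptor for a fragment of complement C3, stood at 715 and 652 CPM. C3 itself was at 34.2 CPM in WT and 3.72 in Mettl3pKO. The latter is 1 UMI, the ratio was 0.109 (0.00261 to 0.696), and its total of UMIs was below the minimum for a call. None of 11 measured complement genes differed by 2-fold or more between genotypes, where 1.37% of all 2927 genes tested over the unmixed macrophages were at least 2-fold higher in Mettl3pKO and 2.39% at least 2-fold lower. The median log2 ratio of the 11 was −0.13, against 0.01 over all genes. The same shares and median over all genes apply to the other lists counted over unmixed macrophages.

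Colony-stimulating factor receptors and the factors that set macrophage identity were mostly within 2-fold between libraries. Csf1r stood at 1794 and 1624 CPM, a ratio of 0.905 (0.805 to 1.02). Csf2rb, the common beta chain of the GM-CSF, IL-3 and IL-5 receptors, was the 1 gene of 8 past 2-fold, at 237 CPM in WT and 93.1 in Mettl3pKO (ratio 0.393, 0.244 to 0.609; 0.544 above the common floor). Of 12 transcription factors none was past 2-fold over the unmixed macrophages. Above the common floor 2 of 11 were at least 2-fold higher in Mettl3pKO, among them Klf4 (2.23, 1.43 to 3.54), where 1.75% of all 1883 genes tested were at least 2-fold higher and 1.81% lower. Maf stood at 2477 and 2041 CPM. Spi1, which encodes PU.1, stood at 269 and 194 CPM (ratio 0.719, 0.512 to 0.998). Spic, the factor of macrophages that recycle red cells, had 3 and 2 UMIs.

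Genes of fetal tissue-resident macrophages reached 20553 CPM summed over 20 genes in WT and 16403 in Mettl3pKO. F13a1 stood at 3000 and 2164 CPM, Mrc1 at 2618 and 1926, Stab1 at 2544 and 2205, Pf4 at 2033 and 1456, and Lyve1, a hyaluronan receptor, at 1418 and 1836. None of these 5 was past 2-fold. Of 15 measured, 2 were past 2-fold, both lower in Mettl3pKO. Cd163, the haemoglobin scavenger receptor, stood at 271 and 119 CPM (ratio 0.439, 0.289 to 0.650), with 53.1% of the Mettl3pKO UMIs from 1 cell. In Y-positive cells its ratio was 0.638 (0.378 to 1.08), no longer past 2-fold. After every cell was thinned to 7429 UMIs, Cd163 was found in 16 of 40 WT cells (40%, 24.9 to 56.7) and 3 of 17 Mettl3pKO cells (17.6%, 3.80 to 43.4), and in 0 of 1905 WT acinar cells (at most 0.194%) and 0.0571% of Mettl3pKO acinar cells, whose median depths before thinning were 13207 and 17936.5 UMIs. Ccl24, an eosinophil chemokine, stood at 131 and 59.6 CPM (ratio 0.456, 0.246 to 0.798; 0.591 above the common floor and 0.600 in Y-positive cells). Timd4, a phosphatidylserine receptor of long-lived resident macrophages, had 4 UMIs in WT and 0 in Mettl3pKO.

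Engulfment, Fc receptor and lysosomal genes showed no 2-fold difference. This held for 11 engulfment receptors, 12 Fc receptors and adaptors and 33 lysosomal genes with enough UMIs, with median log2 ratios of −0.15, −0.26 and 0.02. Lysosomal genes summed to 21957 and 22276 CPM. Ctsb, the protease cathepsin B, stood at 3757 and 3821 CPM, a ratio of 1.02 (0.942 to 1.10). Apoe, a lipid carrier, stood at 5885 and 4954 CPM. None of 10 lipid-handling genes was past 2-fold.

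Microglia-type genes were present at levels that spanned a wide range. Cx3cr1 stood at 1374 and 1114 CPM and Trem2 at 342 and 294, whereas P2ry12, a purine receptor, stood at 165 and 112. Olfml3 was the 1 gene of 7 past 2-fold, at 68.3 CPM in WT and 142 in Mettl3pKO (ratio 2.07, 1.27 to 3.39). In all other cells it stood at 50.7 and 35.6 CPM, near its level in the WT macrophages. Above the common floor 2 of 6 microglia-type genes were at least 2-fold higher in Mettl3pKO, and in Y-positive cells none of 4 was past 2-fold.

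The monocyte chemokine genes Ccl2 (chr11:82035571-82037453), Ccl7 (chr11:82045712-82047525) and Ccl12 (chr11:82101845-82103400) are neighbours on the plus strand. Over all unmixed macrophages Ccl2 was higher in Mettl3pKO while Ccl7 and Ccl12 were lower. Above the common floor each had a ratio below 1, though the interval of Ccl2 contained 1. Ccl12 was in 27 of 48 WT cells at 0 to 51.3 per 10000 (median 1.18) and in 13 of 17 Mettl3pKO cells at 0 to 12.9 (median 1.31). Its CPM was 723 in WT and 224 in Mettl3pKO, a ratio of 0.309 (0.231 to 0.407), 0.192 above the common floor and 0.328 in Y-positive cells. The medians were close and the highest WT cells stood above the highest Mettl3pKO cells; 1 WT cell gave 24.4% of the WT UMIs. After thinning, Ccl12 was found in 55% of WT and 64.7% of Mettl3pKO cells, and in 0.158% and 0.171% of acinar cells. Thus Ccl12 was not found in a smaller share of Mettl3pKO cells. Ccl2 stood at 585 and 778 CPM (ratio 1.33, 1.11 to 1.60). Its ratio was 0.892 (0.731 to 1.09) above the common floor and 1.455 (1.12 to 1.90) in Y-positive cells. Ccl7 stood at 275 and 190 CPM (ratio 0.690, 0.490 to 0.958). Its ratio was 0.401 (0.282 to 0.565) above the floor and 0.493 (0.335 to 0.721) in Y-positive cells, past 2-fold in both. Of 12 chemokines, Ccl12, Ccl24 and Cxcl10 were past 2-fold, each lower in Mettl3pKO. Cxcl2 (ratio 1.61, 1.40 to 1.86) and Ccl4 (1.31, 1.13 to 1.53) went the other way. Above the common floor their ratios were 1.21 and 0.818. In Y-positive cells 2 of 8 chemokines were at least 2-fold higher and 2 lower. The higher ones were Cxcl2 (2.44, 1.93 to 3.12) and Ccl4 (2.335, 1.77 to 3.12). Cxcl10 stood at 257 and 96.8 CPM, drew 51.6% of its WT UMIs from 1 cell, and had a ratio of 0.638 in Y-positive cells. Of 8 chemokine receptors, 1 was at least 2-fold higher in Mettl3pKO and 1, Ccr2, lower, and above the common floor neither was.

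The macrophages varied along an axis marked by Mrc1. Per cell, Mrc1 ran from 0 to 73.7 per 10000 in unmixed WT macrophages (median 22.8) and from 0 to 62.5 in Mettl3pKO (median 14.9). Across 48 WT and 17 Mettl3pKO cells, the level of Mrc1 followed that of Pf4 (r = 0.885 and 0.850), Igfbp4 (0.825 and 0.873), Stab1 (0.785 and 0.909) and Lyve1 (0.728 and 0.845). It ran opposite to Cd52 (−0.771 and −0.850), Ctss (−0.689 and −0.830) and Ccr2, the receptor for CCL2 on monocytes (−0.818 and −0.638). These are correlations across cells that share a library, and depth differs between the cells.

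At the Mrc1-negative end in WT lay 10 cells with 0 Mrc1 UMIs, of median depth 8242. Summed over them, Ccr2 stood at 1936 CPM, the lysozyme gene Lyz2 at 4517, the invariant chain gene Cd74 at 1083 and the myeloid gene Plac8 at 438, while Lyve1 stood at 11.5. The 32 WT cells with at least 10 Mrc1 UMIs, of median depth 10417, had Ccr2 at 128 CPM, Lyz2 at 581, Cd74 at 25.01, Plac8 at 0 and Lyve1 at 1959. Between them lay 6 WT cells with 1 to 9 Mrc1 UMIs, with C1qc at 4151 CPM, Apoe at 13922 and Lyve1 at 0. Mettl3pKO had 1, 5 and 11 cells in these classes. The classes were cut on UMIs without thinning, so at the same Mrc1 level a deeper cell can fall in a higher class. The 11 Mrc1-high Mettl3pKO cells had a median depth of 14282 UMIs. Those 11 had F13a1 at 3252 CPM against 3737 in the WT cells of that class, and Lyve1 at 3006. They stood lower than WT in Ccr2 (55.4 CPM) and in Ccl12 (197 CPM, against 972.5). Its 1 Mrc1-negative cell, of 17109 UMIs, had Lyz2 at 994 CPM and no Plac8 UMI. The plot of Mrc1 against Lyz2 shows the WT cells of high Lyz2 at the lowest Mrc1 levels.

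**Figure D4:**
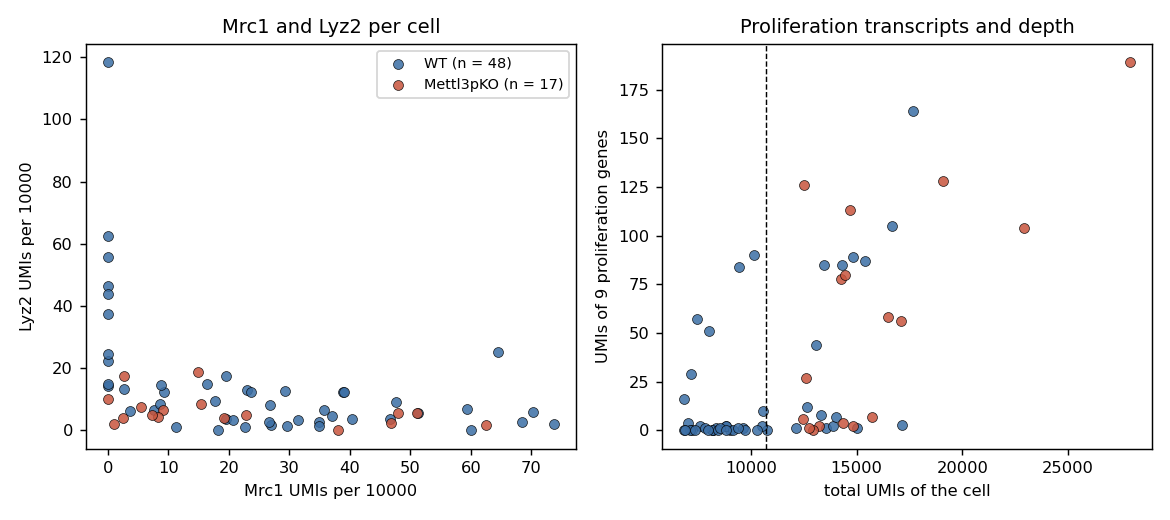
Each point is 1 unmixed macrophage, coloured by library. The left panel plots Mrc1 against Lyz2, both per 10000 UMIs, and the right panel plots the UMIs of 9 proliferation genes against the total UMIs of the cell, with a dashed line at the common floor of 10719 UMIs; 10 WT cells and 1 Mettl3pKO cell have no Mrc1, and most WT cells lie below the floor.

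Monocyte genes stood lower in the Mettl3pKO macrophages, a difference that was mostly absent among cells above the common floor and present among Y-positive cells. Of 5 measured, 4 were at least 2-fold lower in unmixed Mettl3pKO macrophages, where 2.39% of all 2927 genes tested were lower. Their median log2 ratio was −1.36, against 0.01 over all genes. Lyz2 stood at 1310 and 618 CPM (ratio 0.472, 0.396 to 0.561), Ccr2 at 468 and 156 (0.334, 0.235 to 0.466) and Thbs1, thrombospondin 1, at 661 and 212 (0.321, 0.238 to 0.427). Itgal, an integrin of leukocytes, was the other, at 147 and 55.9 CPM (0.381, 0.203 to 0.670; 0.311 above the floor). Above the common floor the ratios were 0.940 for Lyz2, 1.08 for Ccr2 and 24.2 (6.40 to 205) for Thbs1, and Thbs1 was the 1 gene of 5 higher and Itgal the 1 lower. In Y-positive cells 3 of 4 monocyte genes were at least 2-fold lower, with a median log2 ratio of −1.56, where 4.98% of 1225 genes were higher and 2.12% lower. The ratios there were 0.428 for Lyz2, 0.266 for Ccr2 and 0.260 for Thbs1. Cd74 behaved likewise, at 275 and 74.5 CPM over all unmixed cells, with a ratio of 1.13 above the floor and 0.152 in Y-positive cells. Outside the macrophages, Lyz2 (ratio 0.317, 0.296 to 0.341), Ccr2 (0.704, 0.594 to 0.832) and Thbs1 (0.725, 0.701 to 0.750) were also lower in Mettl3pKO. Lower levels of these genes were thus not particular to the macrophages. Cd74 was higher there (1.34, 1.16 to 1.54). The median monocyte sum per cell was 23.2 per 10000 in WT (2.91 to 204) and 15.9 in Mettl3pKO (7.13 to 47.8). After thinning, Ccr2 was found in 40% and 41.2% of cells. Plac8 was in 6 of 48 WT cells (78.4 CPM) and had 0 UMIs in Mettl3pKO, for which the upper bound was 13.7 CPM.

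Interferon-response genes also stood lower in Mettl3pKO, and part of that group kept its direction above the floor. Of 13 measured, 5 were at least 2-fold lower and none higher in unmixed Mettl3pKO macrophages, where 2.39% of all 2927 genes tested were lower and 1.37% higher. Their median log2 ratio was −0.76, against 0.01 over all genes. The 5 were Rtp4, Ifitm3, Irf9, Stat2 and Ifi27l2a. Above the floor 2 of 7 were lower, with a median of −0.61, and in Y-positive cells 1 of 5, with a median of −0.65. Irf9 was not past 2-fold in either (0.566 and 0.696). The list had been described in an earlier reading of these data, so its direction is not independent evidence. The sum per cell ran from 7.93 to 110 per 10000 in WT (median 21.0) and from 3.18 to 30.4 in Mettl3pKO (median 15.8), so the groups overlapped and the highest cells were WT. Bst2 went the other way, with a ratio of 1.55 (1.02 to 2.34), and was not past 2-fold.

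Rtp4, an interferon-induced gene, had the lowest ratio by interval among the genes named over the unmixed macrophages. It had 63 UMIs in 26 of 48 WT cells (127 CPM) and 5 UMIs in 3 of 17 Mettl3pKO cells (18.6 CPM), a ratio of 0.147 (0.0462 to 0.362). Above the common floor the ratio was 0.163, and in Y-positive cells 0.0750. After thinning, Rtp4 was found in 19 of 40 WT cells (47.5%, 31.5 to 63.9) and 1 of 17 Mettl3pKO cells (5.88%, 0.149 to 28.7), and in 0.368% and 0.743% of acinar cells, whose median depths were 13207 and 17936.5 UMIs. In all other cells Rtp4 stood at 2.91 and 1.92 CPM.

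Of the 15 genes named for the lowest ratios over the unmixed macrophages, 3 more are described here, none of them on the interferon list. Slfn5 stood at 141 and 22.4 CPM (ratio 0.159, 0.0564 to 0.364; 0.131 above the floor and 0.168 in Y-positive cells). Mndal stood at 309 and 123 CPM (ratio 0.397, 0.264 to 0.582; 0.326 and 0.291). Sp100, a nuclear body protein, stood at 159 and 55.9 CPM (ratio 0.352, 0.188 to 0.616; 0.335 and 0.392). Of the interferon list, Ifitm3 was higher in the other cells of Mettl3pKO (585 CPM) than of WT (280 CPM) while it was lower in its macrophages (281 in WT and 123 in Mettl3pKO, ratio 0.437, 0.290 to 0.642). Ifit3 had 44 UMIs in 5 WT cells, 50% of them from 1 cell, and 0 in Mettl3pKO.

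Proliferation genes were higher in the Mettl3pKO macrophages. Over unmixed macrophages 4 of 9 were at least 2-fold higher and none lower, where 1.37% of all 2927 genes tested were higher and 2.39% lower. Their median log2 ratio was 0.82, against 0.01 over all genes. Top2a, the DNA topoisomerase of dividing cells, ran from 0 to 23.6 per 10000 in WT (median 0) and from 0 to 27.2 in Mettl3pKO (median 9.71). Its CPM was 448 and 991, a ratio of 2.21 (1.84 to 2.65). Cdk1, the kinase that drives mitosis, stood at 179 and 391 CPM (2.19, 1.63 to 2.93), and Pclaf, a partner of the replication clamp, at 199 and 525 CPM (2.64, 2.03 to 3.45). Mki67 stood at 490 and 868 CPM (1.77, 1.47 to 2.13). The other 2 past 2-fold were Aurkb (2.14, 1.30 to 3.55) and Ccnb1 (2.23, 1.47 to 3.41). Of the G2M genes 1 of 18 (Anln) and of the S phase genes 1 of 15 (Tyms) was past 2-fold, each higher in Mettl3pKO.

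Depth and sex moved with this difference. Above the common floor none of the 9 proliferation genes was past 2-fold and their median log2 ratio was 0.37; Top2a had a ratio of 1.44 and Mki67 of 1.19. None of 15 G2M genes was past 2-fold there (median log2 ratio 0.05). Of 11 S phase genes there, 1 was lower and none higher (median −0.15). In Y-positive unmixed cells, 14 in WT and 13 in Mettl3pKO, Top2a had a ratio of 6.44, and 8 of the 14 WT cells had no proliferation UMI. In those cells 4 of 6 G2M genes and 2 of 3 S phase genes were at least 2-fold higher. After thinning, 19 of 40 WT cells (47.5%, 31.5 to 63.9) and 13 of 17 Mettl3pKO cells (76.5%, 50.1 to 93.2) held at least 2 proliferation UMIs. In acinar cells the shares were 58.0% and 70.9%, so the acinar cells differed in the same direction. Cells with at least 20 proliferation UMIs were 12 of 48 in WT (25%) and 10 of 17 in Mettl3pKO (58.8%), and above the floor 7 of 16 in WT (43.8%). Those 12 WT cells had a median of 13274 UMIs and the other 36 of 8832, so the WT cells rich in proliferation UMIs were also the deeper ones. The part of depth and sex in the difference was not tested.

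Among the other genes named between genotypes in unmixed macrophages, Tagln2, an actin-binding protein, stood at 372 and 793 CPM (2.13, 1.75 to 2.61; 1.77 above the floor). Abce1, a ribosome-recycling factor, stood at 42.2 and 134 CPM (3.18, 1.81 to 5.73; 3.82 above the floor). P2rx7, the ATP-gated channel of macrophages, stood at 62.3 and 164 CPM (2.63, 1.62 to 4.31), and Lair1, an inhibitory receptor for collagen, at 54.3 and 142 CPM (2.61, 1.55 to 4.44). In Mettl3pKO 45.5% of the P2rx7 UMIs came from 1 cell. P2rx7 and Lair1 were below 1 CPM in all other cells of both libraries. Camk2d, a calcium-dependent kinase, stood at 50.2 and 149 CPM (2.97, 1.76 to 5.10). In Y-positive cells none of these 3 was past 2-fold, with ratios of 1.56 (0.690 to 3.85) for P2rx7, 1.797 (0.879 to 3.96) for Lair1 and 1.86 (0.911 to 4.08) for Camk2d.

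In the remaining macrophage groups few genes were past 2-fold, where 1.37% of all 2927 genes tested were higher and 2.39% lower. Of 11 scavenger and lectin receptors, 2 were past 2-fold, Cd163 and Clec4a1 (394 and 186 CPM, ratio 0.473, 0.340 to 0.648; 0.685 above the floor), both lower in Mettl3pKO. Of 12 genes of iron and haem handling, Cd163 alone was, while the haem oxygenase gene Hmox1 stood at 671 and 860 CPM (1.28, 1.08 to 1.52) and the ferritin gene Ftl1 at 5569 and 5240. None of 12 inflammatory cytokines and mediators was past 2-fold. Il1b, interleukin 1 beta, stood at 197 and 101 CPM (0.511, 0.321 to 0.789) and Tnf at 161 and 249.5 CPM (1.55, 1.11 to 2.17), with ratios of 0.849 and 0.862 above the common floor. None of 7 toll-like and pattern receptors and none of 6 MHC class I genes was past 2-fold, and B2m stood at 2003 and 1795 CPM. Among MHC class II genes, Cd74 was the 1 of 3 past 2-fold, and H2-Aa had 62.3 CPM in WT and 0 UMIs in Mettl3pKO. The median log2 ratio of this group was −0.44, and over the 2 genes tested in Y-positive cells −1.57. Growth factors and matrix genes had 2 of 9 lower, Sema4d (96.4 and 37.2 CPM) and Plaur (86.4 and 33.5 CPM; ratio 0.695 above the floor), integrins 1 of 21 lower (Itgal), and oxidative-burst genes 1 of 11 higher, Gclm (54.3 and 123 CPM; ratio 1.65 above the floor and 1.42 in Y-positive cells). None of 10 glycolysis genes was past 2-fold.

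**Figure D5:**
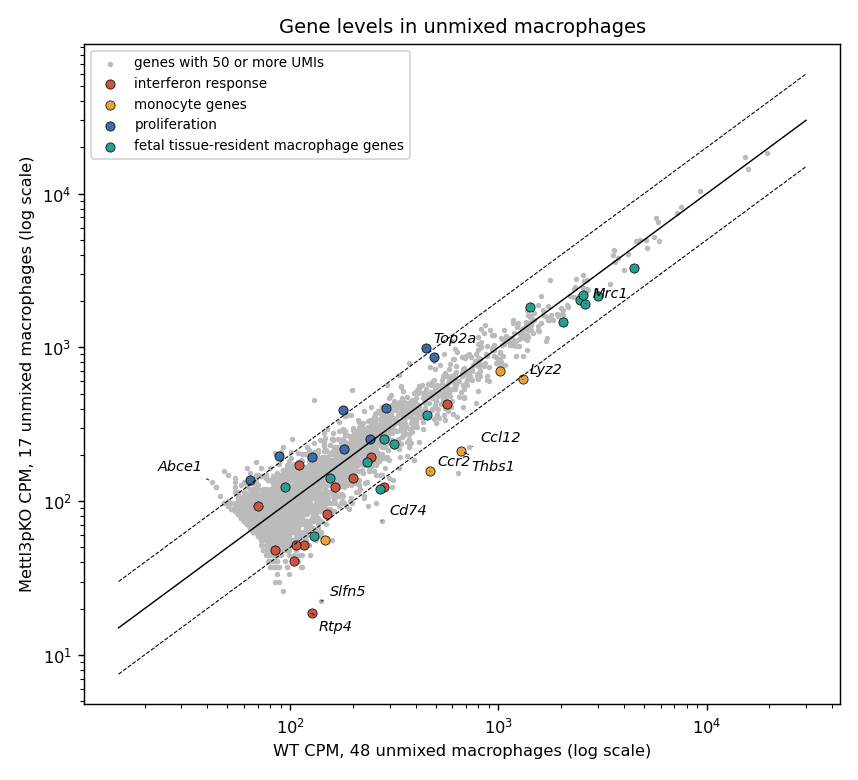
CPM in Mettl3pKO against CPM in WT (log axes) for genes with at least 50 UMIs over the unmixed macrophages, with lines at equal levels and at 2-fold. Genes with 0 UMIs in a library are not drawn; 40 genes lie at least 2-fold above equality and 70 at least 2-fold below, among them Rtp4, Slfn5 and Ccl12 below and Top2a and Abce1 above. Colours mark the genes of 4 lists.

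The same comparison was made over all 79 cells, 14 of which held transcripts of another lineage. There 244 of 4049 genes (6.03%) were at least 2-fold higher in Mettl3pKO and 286 (7.06%) lower. All 15 genes named as lowest are known from neurons, led by Stmn2 with 214 UMIs in WT and 0 in Mettl3pKO, and 50.9% to 69.8% of their WT UMIs came from 1 cell. Among the 15 named as highest, led by Galnt7 (31.0 and 138 CPM, ratio 4.46, 2.63 to 7.94) and Lfng (25.8 and 102 CPM, ratio 3.96), 2 were also named over the unmixed macrophages, Abce1 and Rangap1. For Galnt7 the unmixed ratio was 2.10 (0.987 to 4.52).

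The machinery that writes, reads and erases N6-methyladenosine (m6A), to which Mettl3 belongs, showed no 2-fold difference in any of 9 measured genes of unmixed macrophages. Wtap, a partner of the methyltransferase, stood at 117 and 119 CPM (1.02, 0.643 to 1.60), Ythdf2, a reader, at 68.3 and 85.7, and Alkbh5, an eraser, at 127 and 134. The other cells held Ythdf2 at 62.3 CPM for WT and 145 for Mettl3pKO. Among 8 p53 target genes 1 was lower, Pmaip1 (ratio 0.476), and among 12 genes of the unfolded protein and integrated stress responses none was past 2-fold. Of 27 genes induced by tissue dissociation, 1 was, Hspa1b (114 and 37.2 CPM, ratio 0.325, 0.148 to 0.643), which stood at a ratio of 1.91 in Y-positive cells. Mitochondrial transcripts took a median of 6.70% of the UMIs of an unmixed WT cell and 7.12% for Mettl3pKO.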

How the data were processed

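The authors deposited raw UMI counts, unscaled, as 1 table of cells by genes for each library, made with the BD Rhapsody whole-transcriptome pipeline 1.8, per the file headers. Per the submitters' processing notes, the build was mm10 and Seurat was among the tools, with no role stated. Each table ended inside its last line, which was dropped, and each was ordered from deep to shallow, so shallower cells may be lacking. The 22023 genes in both tables were used. The macrophages, the gene lists and the comparisons were chosen with earlier results of these data known.

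UMIs were summed over the macrophages of each library and scaled to CPM, with exact Poisson intervals for CPM, Clopper-Pearson intervals for shares and conditional binomial intervals for ratios, all at 95% (Python 3.11.15, numpy 2.4.6, scipy 1.17.1, matplotlib 3.10.9). Genes with at least 50 UMIs over both libraries counted as 2-fold higher or lower by ratio; 0.5 UMIs were added for median log2 ratios. Named genes were the 25 with the highest macrophage to other-cell ratio at 100 CPM or more, and the 15 highest and 15 lowest ratios ranked by the interval bound nearest 1 at 50 CPM or more. Sex-linked, ribosomal, globin, mitochondrial and rule genes were left out, as were genes lower in macrophages than in the other cells of the library where they were higher: 408 higher and 22 lower over all macrophages, 55 and 21 over unmixed ones. Unmixed macrophages had fewer than 100 acinar, 15 duct and trunk, 15 mesenchyme, 200 erythroid and 10 neuronal UMIs per 10000. Shares of cells with a UMI were taken after thinning each cell to 7429 UMIs, which left out 8 unmixed WT cells and 72 WT acinar cells. Scrublet (scanpy 1.11.5) marked 337 of 6384 WT cells (5.28%) and 1 of 3624 Mettl3pKO cells (0.0276%); no cell was removed by it in the main values. The scripts were tested on simulated counts. Alternatives covered the rule's limits, depth, sex, quality filters, thresholds and weighting. Results for a few named genes are not reported here.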

Additional observations from a re-analysis of the deposited data

How the results depend on the processing

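Over all 79 macrophages the main values were a share ratio of 0.915, 244 genes at least 2-fold higher and 286 lower in Mettl3pKO, summed-list ratios of 0.586 (interferon response), 0.385 (monocyte) and 1.44 (proliferation), and 50% of WT and 77.8% of Mettl3pKO cells with at least 2 proliferation UMIs. The last main value was the 443 genes at least 4-fold above the other cells. The share ratio moved by less than its interval under every alternative run. Ratios and percentages were compared with the interval of the main value, and gene counts with a limit of 1.5-fold. All 9 main values stayed within these limits when cells under 200 genes or over 25% mitochondrial UMIs were left out. The same held when those under 500 genes or over 10% were left out, and without the cells Scrublet marked. It also held for the 5 values that could be recomputed with totals reduced by technical and tissue gene classes. No paired analysis was possible because each genotype had 1 library. The cause of the changes below was not tested, except that fewer or shallower cells leave fewer UMIs.

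The count of higher genes was 56 with a sum of at least 20, 520 with at least 5, 54 with tighter per-10000 limits on other lineages, 23 in cells with Xist and no Y-linked UMI, 597 at 1.5-fold, 695 with at least 20 UMIs and 2977 with at least 1 UMI. The count of lower genes was 182 above the common floor, 93 with a sum of at least 20, 739 with at least 5, 105 with the tighter limits, 132 in Xist-positive and 109 in Y-positive cells, 887 at 1.5-fold, 675 with at least 20 UMIs and 2785 with at least 1 UMI. Under alternatives chosen after seeing the data, higher and lower genes numbered 71 and 103 with a Csf1r UMI required, 40 and 70 in unmixed cells, 33 and 34 in unmixed cells above the floor, and 61 and 26 in unmixed Y-positive cells.

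The interferon ratio was 0.668 with a sum of at least 20, 0.648 with Csf1r required, 0.691 in Xist-positive and 0.643 in Y-positive cells. The monocyte ratio was 0.709 above the floor, 0.552 with a sum of at least 20, 0.282 with at least 5, 0.488 with the tighter limits, 0.558 with Csf1r, 0.476 in unmixed cells, 0.885 in unmixed cells above the floor, 0.475 in Xist-positive and 0.296 in Y-positive cells. The proliferation ratio was 1.08 above the floor, 1.81 with a sum of at least 20, 1.15 with at least 5, 1.797 with the tighter limits, 1.59 with Csf1r, 1.735 in unmixed cells, 1.2 in unmixed cells above the floor, 1.31 in Xist-positive, 2.51 in Y-positive and 3.46 in unmixed Y-positive cells, and 1.69 with cells weighted equally. The share of WT cells with proliferation UMIs was 77.8% above the floor and 68.75% in unmixed cells above the floor. With 1 proliferation UMI as the limit the shares were 65.9% in WT and 92.6% in Mettl3pKO.

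Some single genes changed direction. In Xist-positive cells the ratios were 0.706 for Galnt7, 0.784 for Phlda1, 0.543 for Lap3, 0.784 for Gpr89, 1.765 for Rtn1, 2.35 for Tubb2b, 2.82 for Tuba1a and 1.01 for Cd74. In unmixed cells above the floor they were 0.878 for Phlda1, 0.637 for Gpr89, 1.27 for Rtn1, 1.70 for Tuba1a, 24.2 for Thbs1, 1.13 for Cd74 and 1.08 for Ccr2, and above the floor alone 2.78 for Thbs1. In unmixed Y-positive cells they were 0.9565 for Mut, 0.850 for Clptm1l, 0.478 for Gpr89, 1.17 for Tuba1a and 1.91 for Hspa1b, which was at 2.80 in all Y-positive cells. Gpr89 was also at 0.9001 with a sum of at least 20, 0.894 with the tighter limits, 0.973 with Csf1r and 0.856 in unmixed cells, where Tuba1a was at 2.00.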
